A study of Sus scrofa with 6 samples.

Results

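The 5 mature sequences of miR-192, miR-215 and miR-194 (miR-192, miR-215, miR-194a, miR-194b-5p and miR-194b-3p) were followed in the jejunum of weaning and suckling piglets. They are 5 of the 533 sequences in the count files, and 5 of the 239 that took the name of a known swine miRNA. A sequence took a name when its read counts in all 6 libraries equalled those of a known miRNA in the supplementary count table of the study (20 or more reads in all). Small RNA libraries W1, W4 and W7 came from barrows (Duroc x Yorkshire x Landrace) that were taken from the sow at 25 d of age and killed 1, 4 and 7 d later, at 26, 29 and 32 d. Libraries S1, S4 and S7 came from barrows of the same cross and the same 4 litters that were left with the sow and killed at the same ages. Every library was 1 pool of jejunal total RNA from 4 piglets, so each condition has 1 library and the spread between piglets is not seen. The jejunal cross-sections held epithelium, lamina propria and muscle together, so fewer epithelial cells and less miRNA per epithelial cell cannot be told apart.

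miRNAs are short RNAs cut from a hairpin precursor, and the bases at positions 2 to 8, the seed, pair with target mRNAs. miR-192 and miR-215 form one seed family and the 5p forms of miR-194 another, and both families are abundant in the epithelium of the intestine. In human cells p53 induces miR-192 and miR-215. In the RefSeq annotation of the pig genome (Sscrofa11.1, a later assembly than the one the authors used), MIR192 and MIR194A are neighbouring genes between ATG2A and EHD1. MIR215 and MIR194B are likewise neighbours, between IARS2 and RAB3GAP2. Each cluster thus carries 1 member of each seed family.

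The deposited sequences are shown with the seed in capitals, since they show which members share a seed and how little the forms differ.
miR-192: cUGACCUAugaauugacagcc
miR-215: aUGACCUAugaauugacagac
miR-194a: uGUAACAGcaacuccaugugg
miR-194b-5p: uGUAACAGcgacuccaugugga
miR-194b-3p: cCAGUGGAgaugcuguuaccuu
miR-192 and miR-215 were identical at 19 of 21 positions and shared the seed UGACCUA, which was found in 2 of the 533 sequences, these 2. Counted from the 5′ end, they differed by C1A and C20A (the base of miR-192, the position, the base of miR-215). miR-194a and miR-194b-5p shared the seed GUAACAG, again found in 2 sequences, and differed over the 21 positions of miR-194a by A10G alone. The seed CAGUGGA of miR-194b-3p, which is cut from the other arm of the miR-194b hairpin, was found in 1 sequence.

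Because the forms are so alike, their counts are not separate measurements. The alignment table of the study allowed 1 mismatch and listed reads under both forms. The following reads stood under both miR-192 and miR-215, or under both miR-194a and miR-194b, with the base that mismatches one of the forms in capitals.
read matching miR-192 and listed also under miR-215: tgacctatgaattgacagCc
read matching miR-215 and listed also under miR-192: tgacctatgaattgacagAca
read matching miR-194a and listed also under miR-194b: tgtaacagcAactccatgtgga
read matching miR-194b and listed also under miR-194a: tgtaacagcGactccatgtgga
The first pair of reads starts 1 base inside the deposited sequences, so that the difference at position 1 is lost and only that at position 20 is left. The sources used here do not say how many reads were counted at both forms, so all counts are taken as deposited. In S1, W1, S4 and S7 the counts added up to more than the clean reads of the study. Some reads were thus counted more than once there. In W4 and W7 the counts added up to fewer than the clean reads, so the library totals differ in this too.

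miR-192 and miR-215 were among the 3 most abundant known miRNAs of every library. Levels are given in CPM, read counts scaled to the same library total. Library totals were 4441416 to 5373146 counts. By the read numbers of the study, W4 kept the smallest share of reads after cleaning and lost the most to the size limits. The study saw no strong difference between libraries in the share kept. miR-192 had 352827 CPM in S1, 333931 in S4 and 344841 in S7, and 302511 in W1, 154620 in W4 and 207231 in W7. The suckling libraries lay close together, and all 3 weaning libraries lay below them, W4 furthest. miR-192 ranked first among known miRNAs in S1, S4, S7 and W1, and second behind miR-143-3p, a miRNA of smooth muscle and other stromal cells, in W4 and W7.

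miR-215 had 198783 CPM in S1, 190909 in S4 and 172958 in S7. In the weaning libraries it had 155661 CPM in W1, 59485 in W4 and 87029 in W7. The order of the weaning libraries was thus that of miR-192, and the groups did not overlap.

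miR-194b-5p, from the cluster of miR-215, had 15866 CPM in S1, 13633 in S4, 14525 in S7, 11735 in W1, 5313 in W4 and 6932 in W7. miR-194a, from the cluster of miR-192, had 10076 CPM in S1, 7941 in S4, 8878 in S7, 6857 in W1, 4457 in W4 and 3830 in W7. On this scale W7 was the lowest library for miR-194a, while after TMM scaling, which lets a few abundant sequences weigh less, W4 was, at 3129 against 3434 TMM-scaled CPM in W7. In both forms of miR-194, too, each weaning library was below every suckling library.

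miR-194b-3p was the rarest member, with 435, 503 and 494 reads in S1, S4 and S7 and 410, 176 and 233 in W1, W4 and W7. These are 96.8, 94.7 and 91.9 CPM in the suckling libraries and 88.2, 39.1 and 52.5 CPM in the weaning libraries. The arm was below the suckling range in all 3 weaning libraries, by little in W1.

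**Figure D1:**
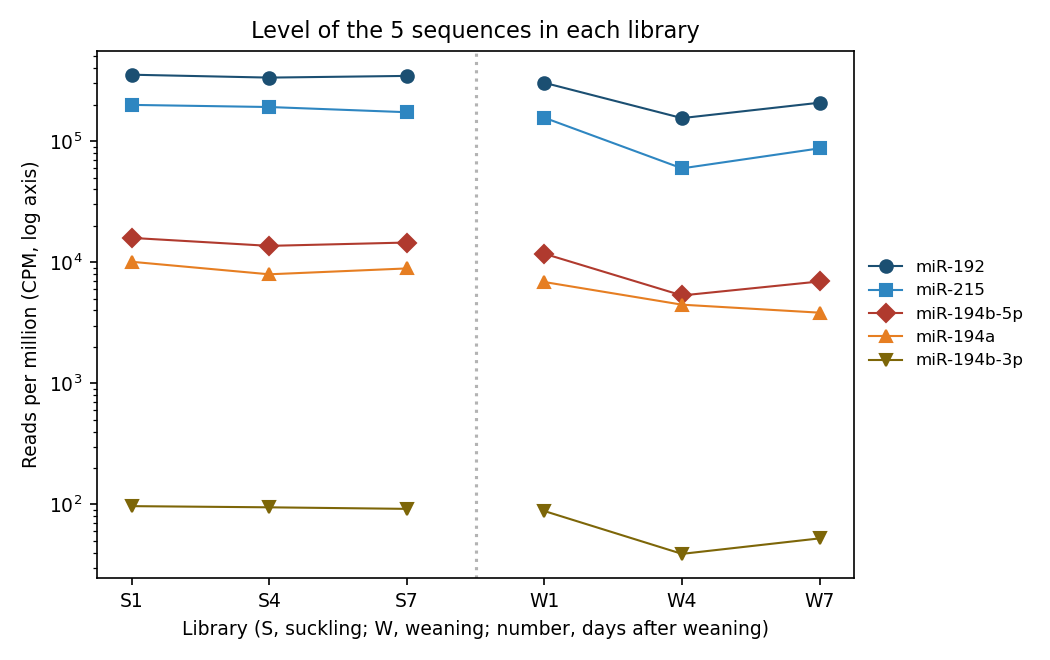
Level of each of the 5 sequences in CPM (log axis) in the 3 suckling (S) and 3 weaning (W) libraries, 1 point per library. The suckling points of each sequence lie nearly level (333931 to 352827 CPM for miR-192), and the weaning points lie below them, with 154620 CPM for miR-192 in W4.

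The order of the levels was the same in all 6 libraries, with miR-192 first, followed by miR-215, miR-194b-5p, miR-194a and miR-194b-3p. All are single sequences of 21 or 22 nt, so the counts need no correction for length. The order is one of counts, since the forms share reads and equal capture of different sequences was not tested. In the suckling group, neighbours in this order did not overlap: 343866 ± 9485 CPM for miR-192 (SD, n = 3 libraries), 187550 ± 13236 for miR-215, 14675 ± 1124 for miR-194b-5p, 8965 ± 1070 for miR-194a and 94.5 ± 2.45 for miR-194b-3p. In the weaning group the means were 221454 ± 74964 CPM (SD, n = 3 libraries) for miR-192, 100725 ± 49529 for miR-215, 7993 ± 3340 for miR-194b-5p, 5048 ± 1598 for miR-194a and 59.9 ± 25.4 for miR-194b-3p. There, the ranges of miR-194b-5p (5313 to 11735 CPM) and miR-194a (3830 to 6857) overlapped. The ranges of miR-192 (154620 to 302511 CPM) and miR-215 (59485 to 155661) met only at the ends. The SD of the weaning group includes the differences between 1, 4 and 7 d.

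The 5 sequences together took 57.8% of all counts in S1, 54.7% in S4 and 54.1% in S7. They took 47.7% in W1, 22.4% in W4 and 30.5% in W7. These are shares of counts and not of reads, since a read counted at both forms enters the sum more than once. Because shares add up to the whole, the share of other miRNAs was higher in the weaning libraries. miR-143-3p took 15.7% to 20.3% of counts in the suckling libraries, a value within that range in W1, and 32.1% in W4 and 32.8% in W7. All sequences other than these 5 and miR-143-3p took 25.1% to 30.1% in the suckling libraries, 32.3% in W1, 45.5% in W4 and 36.7% in W7. For this reason ratios are given on 2 scales: per library total, and after TMM scaling from edgeR, which sets the typical miRNA level between libraries and is less moved by a few abundant sequences.

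**Figure D2:**
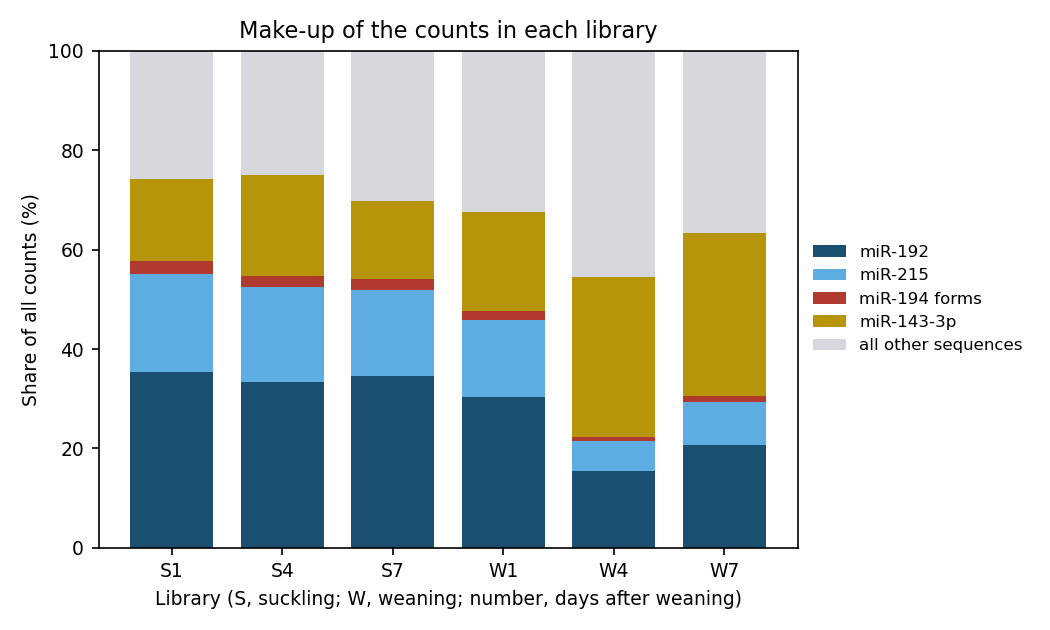
Share of all counts (%) taken by miR-192, miR-215, the 3 miR-194 sequences, miR-143-3p and all other sequences in each library. The part taken by the miR-192, miR-215 and miR-194 sequences shrinks from 54.1% to 57.8% in S1, S4 and S7 to 47.7% in W1, 22.4% in W4 and 30.5% in W7. A read counted at both forms of a pair enters the shares more than once.

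The question of the design is whether weaning changes jejunal miRNAs, and on which day. At 1 d, all 5 sequences had lower ratios in W1 against S1, none by 2-fold. Their log2 ratios on the library total were -0.56 for miR-194a (95% interval -0.58 to -0.53), -0.44 for miR-194b-5p (-0.45 to -0.42), -0.35 for miR-215 (-0.36 to -0.35), -0.22 for miR-192 (-0.23 to -0.22) and -0.13 for miR-194b-3p (-0.33 to 0.06). These exact intervals cover counting error only, and with 1 library on each side the ratios have no replicate check. The median of all 229 miRNAs with at least 50 reads in the pair was 0.28. With TMM scaling the 5 ratios ran from -0.88 to -0.46 and the median of all was -0.04. Of the 5, 0 were at least 2-fold lower on either scale, against 2.62% of all miRNAs on the library total and 3.93% with TMM scaling.

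At 4 d the ratios were the lowest of the 3 days for 4 of the 5 sequences on the library total, all but miR-194a, and for all 5 with TMM scaling. In W4 against S4, miR-215 had a log2 ratio of -1.68 (-1.69 to -1.68), a level 3.21-fold lower in W4. Its cluster neighbour miR-194b-5p had -1.36 (-1.38 to -1.34), and the other arm, miR-194b-3p, -1.28 (-1.53 to -1.03). The members of the other cluster had -1.11 (-1.11 to -1.11) for miR-192 and -0.83 (-0.86 to -0.81) for miR-194a, and the value of miR-192 lay within the interval of miR-194b-3p. Of the 5, 4 were at least 2-fold lower, against 2.87% of 244 miRNAs, and these 4 were among the 7 miRNAs past that fold. The median of all miRNAs was 0.83, and it was -0.01 with TMM scaling. With TMM scaling, all 5 were at least 2-fold lower (9.02% of all miRNAs), with log2 ratios of -2.52 for miR-215, -2.20 for miR-194b-5p, -2.11 for miR-194b-3p, -1.95 for miR-192 and -1.67 for miR-194a. By either scaling, 2 of the 244 miRNAs had a lower ratio than miR-215.

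At 7 d the ratios were between those of 1 and 4 d for all 5 sequences with TMM scaling, and for all but miR-194a on the library total. In W7 against S7, miR-194a had the lowest log2 ratio, -1.21 (-1.24 to -1.19), followed by miR-194b-5p at -1.07 (-1.09 to -1.05) and miR-215 at -0.99. miR-194b-3p had -0.81 (-1.04 to -0.58) and miR-192 -0.73 (-0.74 to -0.73). Of the 5, 2 were at least 2-fold lower, against 3.8% of 237 miRNAs, and with TMM scaling all 5 were (8.02% of all). The TMM values ran from -1.49 for miR-194a to -1.01 for miR-192. The median of all was 0.21 on the library total and -0.06 with TMM scaling. The differences between 1, 4 and 7 d were not tested, since each time has 1 weaning library.

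**Figure D3:**
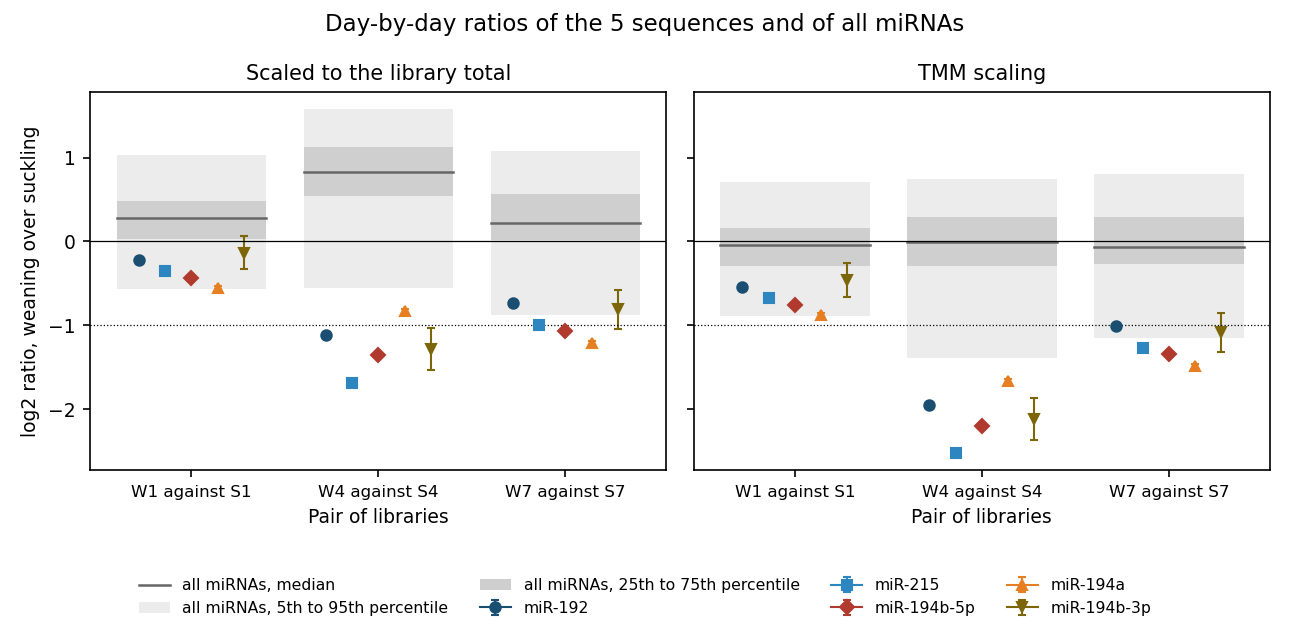
Log2 ratio of weaning over suckling level for each pair of libraries, scaled to the library total (left) and with TMM scaling (right). Coloured points are the 5 sequences with exact 95% intervals for counting error, and grey bars are the 5th to 95th and 25th to 75th percentiles of all miRNAs with their median as a line. All 5 lie below the median of all miRNAs on each day, furthest at 4 d, where miR-215 is at -1.68 on the left and -2.52 on the right.

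The 3 weaning libraries were then compared with the 3 suckling libraries by edgeR's quasi-likelihood test over 290 miRNAs. Whether these libraries differ as animals do is not seen, because the p-values measure only the spread between pools, and in the weaning group that spread includes the days. All 5 sequences had negative log2 fold changes with TMM scaling, and 0 passed the adjusted threshold of 0.05, as did 0% of all miRNAs. miR-194a had the lowest adjusted p in edgeR (0.132), at -1.27 on the log2 scale with a standard error of 0.29. The log2 fold changes were -1.30 (standard error 0.43) for miR-215, -1.29 (0.37) for miR-194b-5p, -1.08 (0.37) for miR-194b-3p and -1.06 (0.34) for miR-192, each with an adjusted p of 0.256 in edgeR. All 5 had an unadjusted p under 0.05, as did 44 of the 290 miRNAs. DESeq2 called 4 of the 5 lower, against 3.79% of all miRNAs, and gave miR-194b-3p an adjusted p of 0.0926. All 3 weaning libraries lay below all 3 suckling libraries for the 5 sequences, against 10% of the 290 miRNAs with TMM scaling and 3.1% with the library total.

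The outcome of the edgeR test depended on W1. With W4 and W7 alone against the 3 suckling libraries, edgeR called all 5 sequences lower, with log2 fold changes from -1.83 for miR-215 to -1.40 for miR-192 and adjusted p from 0.011 to 0.0476. In that fit 9 of 286 miRNAs, or 3.15%, were called lower.

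Each weaning library was also set against the 3 suckling libraries, in 1 edgeR fit with 4 groups. The spread then comes from S1, S4 and S7, and the lone weaning library is assumed to vary like them. In W4 all 5 sequences fell, against 2.07% of 290 miRNAs called lower, and they had the 5 smallest p-values of all miRNAs. miR-215 fell by 2.41 on the log2 scale (standard error 0.21, adjusted p = 0.00602 in edgeR), miR-194b-5p fell by 2.22 (0.17, adjusted p = 0.00492) and miR-194b-3p fell by 2.03 (0.22, adjusted p = 0.0116). miR-192 fell by 1.90 (0.14, adjusted p = 0.00492 in edgeR) and miR-194a fell by 1.76 (0.19, adjusted p = 0.0116). The only other miRNA called lower was miR-182, a miRNA of epithelial and sensory cells, at -1.08 (standard error 0.12, adjusted p = 0.0116 in edgeR).

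In W7 all 5 sequences were lower than in the suckling libraries, and all but miR-194b-3p were called. No other miRNA was called lower (1.38% of 290 were). miR-194a fell by 1.62 on the log2 scale, miR-194b-5p fell by 1.48 and miR-192 fell by 1.13, with adjusted p = 0.0264 in edgeR for each, and miR-215 fell by 1.51 (adjusted p = 0.027). miR-194b-3p, at -1.25, had an adjusted p of 0.0519 in edgeR. In W1, 0 of the 5 and 0% of all miRNAs were called, with log2 fold changes from -0.68 for miR-194a to -0.39 for miR-194b-3p and an adjusted p of 0.643 in edgeR for each. There, 4 of the 5 had an unadjusted p under 0.05, and DESeq2 called 0. The calls in W4 and W7 were lost when S4 was left out (0 of 5 in each), with log2 fold changes still from -2.31 to -1.76 in W4 and from -1.60 to -1.05 in W7.

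The forms and arms were compared by their ratio within a library, which needs no scaling between libraries. The ratio of miR-215 to miR-192, whose counts share reads, was lower in the weaning library on each day. There were 0.563 miR-215 reads per miR-192 read in S1, 0.572 in S4 and 0.502 in S7. In the weaning libraries there were 0.515 in W1, 0.385 in W4 and 0.42 in W7. W1 lay within the suckling range and W4 and W7 below it. The difference of the groups was -0.32 on the log2 scale (3 of 3 days lower, p = 0.2, adjusted p = 0.4, exact permutation test, two-sided, n = 3 libraries each). With 3 libraries a group this test cannot go below 0.1, and p-values were adjusted over the 4 ratios compared.

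miR-194a and miR-194b-5p, the forms of miR-194, did not keep one order of change. There were 0.635 miR-194a reads per miR-194b-5p read in S1, 0.582 in S4 and 0.611 in S7, and 0.584 in W1, 0.839 in W4 and 0.552 in W7. W4 stood above all other libraries and W7 below them. From S4 to W4 the log2 difference of this ratio was 0.53 (95% interval 0.49 to 0.56 for counting error), and that of miR-215 per miR-192 was -0.57 (-0.58 to -0.56). At 4 d the sequences of the MIR215 and MIR194B cluster were thus lower relative to their counterparts of the MIR192 and MIR194A cluster in both seed families. At 1 d miR-194a per miR-194b-5p had a log2 difference of -0.12 and at 7 d of -0.15, in the opposite direction, while miR-215 per miR-192 had -0.13 and -0.26. Over the 3 days the groups did not differ beyond their spread in miR-194a per miR-194b-5p, with 0.61 ± 0.0264 in the suckling and 0.659 ± 0.157 in the weaning group (SD, n = 3 libraries each, exact permutation p = 0.9, adjusted p = 0.9). W4 alone set the direction of that difference, which was 0.09 on the log2 scale and -0.10 without W4.

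Most reads of the miR-194b hairpin came from the 5p arm, which held 99.2% to 99.4% of the reads of both arms in every library. There were 164 miR-194b-5p reads per miR-194b-3p read in S1, 144 in S4 and 158 in S7, and 133 in W1, 136 in W4 and 132 in W7. The 3 weaning libraries lay below the 3 suckling libraries, with a log2 difference of -0.21 (3 of 3 days lower, exact permutation p = 0.1, the smallest this design allows, adjusted p = 0.4). By day, the log2 difference was -0.30 at 1 d (95% interval -0.50 to -0.10 for counting error), -0.08 at 4 d (-0.33 to 0.17) and -0.26 at 7 d (-0.48 to -0.03). The rare arm limits this ratio, and at 4 d a change was not detectable at this depth. The count of the 5p arm may also hold reads of miR-194a, which are listed under miR-194b too.

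Between the seed families, the 5p forms of miR-194 had 0.047 reads per read of miR-192 and miR-215 in S1, 0.0411 in S4 and 0.0452 in S7. The weaning libraries had 0.0406 in W1, 0.0456 in W4 and 0.0366 in W7. The group means were 0.0444 ± 0.00303 and 0.0409 ± 0.00454 (SD, n = 3 libraries each, exact permutation p = 0.3, adjusted p = 0.4), and the ranges overlapped.

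**Figure D4:**
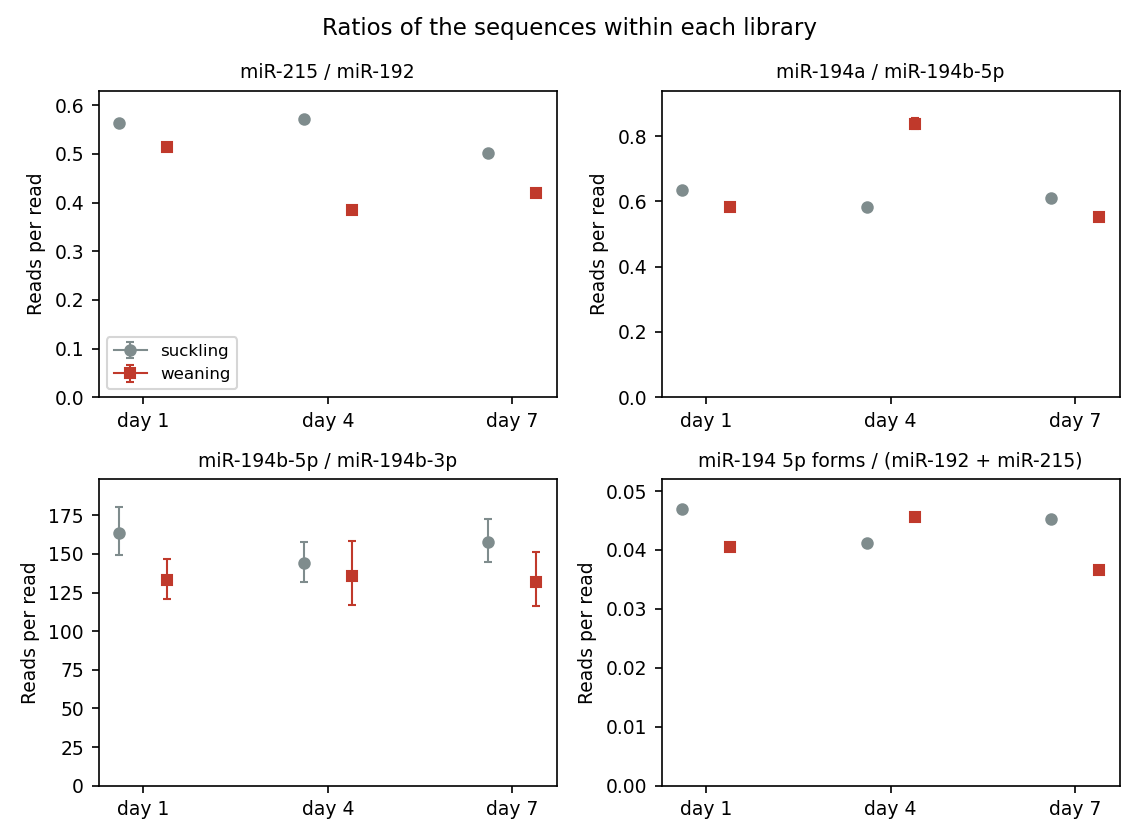
Reads of one sequence per read of another within each library, by day (grey circles, suckling; red squares, weaning; bars, exact 95% intervals for counting error, often smaller than the symbol). miR-215 per miR-192 is lower in the weaning library on each day (0.385 in W4 against 0.572 in S4), and miR-194a per miR-194b-5p is higher at 4 d only (0.839 against 0.582).

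Across the 6 libraries the 5 sequences followed each other closely, with Pearson correlations of log2 TMM-scaled CPM from 0.956, between miR-194a and miR-194b-3p, to 0.999, between miR-215 and miR-194b-3p. These are descriptions over 6 pools that share a scaling, and some of the sequences share reads. Among 207 known miRNAs with at least 100 reads, the 5 others most like the mean of these sequences were miR-31 (r = 0.978 over 6 libraries), let-7g (0.968), miR-874 (0.948), miR-210 (0.912), which is induced by low oxygen in many cells, and miR-486 (0.903), abundant in red blood cells. miR-31, a miRNA of epithelial cells, had 310 to 363 TMM-scaled CPM in the suckling and 233 to 303 in the weaning libraries, a narrower span than that of the members. Its direction depended on the scaling, since on the library total it had 300, 269 and 286 CPM in S1, S4 and S7 and 314, 331 and 295 CPM in W1, W4 and W7, higher in the weaning library on each day. On that scale let-7g and miR-486 were also higher in W1 and W4 than in S1 and S4, and lower in W7 than in S7. For miR-486 these were 285, 333 and 354 CPM in S1, S4 and S7 and 324, 358 and 328 CPM in W1, W4 and W7. miR-874 had 24.1 to 29.9 TMM-scaled CPM in the suckling and 8.48 to 16 in the weaning libraries, at 42 to 127 reads a library.

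Other epithelial miRNAs were looked for as a check of the tissue. Of 9 listed, 3 had a named sequence (miR-429, miR-31 and miR-7), and miR-375, miR-203, miR-141 and the 3 forms of miR-200 had none. Their summed level was 1779 to 2039 CPM in the suckling and 1948 to 2499 in the weaning libraries, and 2213 to 2352 and 1751 to 2241 with TMM scaling. edgeR called 0 of the 3 in any comparison. miR-429, of the epithelial miR-200 family, had 1432, 1340 and 1343 CPM in S1, S4 and S7 and 1460, 1595 and 1671 CPM in W1, W4 and W7. Its direction depended on the scaling, with a log2 ratio at 4 d of 0.25 on the library total and -0.59 with TMM scaling. The highest TMM-scaled ratio of the 5 sequences that day was -1.67, for miR-194a. miR-7, a miRNA of endocrine and other epithelial cells, had 957, 909 and 2202 reads in S1, S4 and S7 and 809, 2555 and 2371 in W1, W4 and W7. Its log2 ratio at 4 d was 1.73 on the library total and 0.89 with TMM scaling. Both were opposite to the 5 sequences, while at 1 d it was lower in W1 on both scales. The list did not hold miR-182, miR-183 or miR-205. miR-182 had 4367 to 4621 TMM-scaled CPM in the suckling and 2144 to 3748 in the weaning libraries. miR-183 had 335, 343 and 407 in S1, S4 and S7 and 296, 274 and 358 in W1, W4 and W7. miR-205 went the other way, with 14, 18 and 22 reads in S1, S4 and S7 and 34, 42 and 30 in W1, W4 and W7.

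Markers of smooth muscle, stroma, leukocytes and endothelium reached higher levels in the weaning libraries on the library total. On that scale the median log2 ratio of all miRNAs was also positive, with 0.28 at 1 d, 0.83 at 4 d and 0.21 at 7 d. Of 7 listed miRNAs of smooth muscle and stroma, all 7 were found, as 10 sequences, and their summed level was 162350 to 207630 CPM in the suckling and 205334 to 333929 in the weaning libraries. Nearly all of this sum was miR-143-3p, which alone had 157308 to 202857 CPM and 199712 to 327838 CPM. Of 6 leukocyte miRNAs, 5 were found, as 6 sequences without miR-223, with 2620 to 4595 CPM and 3483 to 7291 CPM. Most of that sum was miR-142-5p, with 2151 to 3758 CPM and 2799 to 5851 CPM. Of 3 miRNAs of red blood cells all 3 were found, with 451 to 604 and 455 to 622 CPM, and miR-126 of endothelium had 3849 to 5725 and 5890 to 7520 CPM. With TMM scaling the ranges were 176207 to 260283 and 198294 to 299467 for smooth muscle and stroma, 3284 to 4987 and 3363 to 5562 for leukocytes, 546 to 655 and 408 to 458 for red blood cells, and 4825 to 6214 and 5280 to 5894 for endothelium. edgeR called 0 of the sequences of these lists in any comparison. The part of these cells in the lower levels of the 5 sequences was not tested.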

How the data were processed

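Small RNA of 6 jejunal libraries, each a pool of 4 piglets, was sequenced. The authors removed adapters, low-quality reads and reads outside the small RNA sizes, aligned clean reads with Bowtie (0.12.2, by the processing notes of the submitters) and matched known miRNAs to miRBase. The authors deposited unscaled read counts per mature sequence. The step from alignments to counts is not given in the sources used. A sequence on several rows of a file (37 to 46 sequences a library) was used once, with its highest count.

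Members and lists were chosen with earlier results of these data known. Named miRNAs were the members, the 5 known miRNAs most correlated with their mean, the most abundant miRNAs and listed markers. edgeR (4.0.16, R 4.3.3) tested miRNAs that reached 10 reads in 3 or more libraries, with TMM scaling and Benjamini-Hochberg adjustment, and was tested on simulated data. DESeq2 (1.42.0) was the alternative tool. Pairs of single libraries were compared by ratio, among miRNAs with at least 50 reads, with exact conditional binomial intervals. Ratios within a library were compared by exact permutation (SciPy 1.17.1, Python 3.11.15). Scalings, filters, libraries left out and the day as a block were the alternatives tried.

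The libraries of a day are paired by the design text, which gives the same days for both groups. Over 153 miRNAs, deviations from the group means correlated between the libraries of a day at 0.248 (day 1), -0.357 (day 4) and 0.212 (day 7). FPKM values, RT-qPCR and target predictions of the study were not used here.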

Additional observations from a re-analysis of the deposited data

Results flagged for a closer look

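The ratio of the miR-194 forms went in opposite directions on different days. The log2 difference of miR-194a reads per miR-194b-5p read was -0.12 between W1 and S1, 0.53 between W4 and S4 and -0.15 between W7 and S7. The ratio of the 5p forms of miR-194 to miR-192 and miR-215 together also turned, with -0.21 at 1 d, 0.15 at 4 d and -0.31 at 7 d. With 1 library for each condition the differences between days were not tested.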

How the results depend on the processing

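Each condition is 1 pool, so counting error is small for 4 of the sequences and the spread between pools limits every comparison. All 5 log2 fold changes were negative in every fit run. In 3 weaning against 3 suckling libraries, 0 of the 5 sequences and 0 miRNAs were called. DESeq2 called 4 and 14, and the library total without TMM called 0 and 1. Leaving out 1 library gave 0 to 5 of the sequences and 0 to 12 miRNAs, and the 5 came without W1. With the replicate block (day), 0 sequences and 0 miRNAs were called, and the lowest adjusted p in edgeR was 0.0506, for miR-194a. The block changed no call. The calls in W4 and in W7 were lost without S4 and kept without S1 or without S7. Leaving out any of these leaves 2 suckling libraries. At 7 d, 2 sequences were at least 2-fold lower, against 5 with TMM scaling, 5 with DESeq2 size factors, 5 with the total without the 5 sequences, 4 with miR-143-3p, miR-192 and miR-215 left out of the total, and 5 at a fold of 1.5. With the clean reads of the study as the library total, 3 were at least 2-fold lower at 7 d and 5 at 4 d. The difference in miR-194a per miR-194b-5p ran from -0.10 to 0.20 with 1 library left out, and was -0.10 without W4. In W4 the library total gave 5 called lower and 147 higher, and TMM scaling 6 and 2. In W7 it gave 4 and 12, and TMM scaling 4 and 1. The other ratios kept their direction, and the paired exact sign permutation test gave p = 0.25 for miR-215 per miR-192, the smallest that 3 pairs allow.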

Other observations

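The candidate SSC1_7989 resembled the other arm of the miR-215 hairpin, and was singled out after its values were seen. Reads of that arm stand under miR-215 in the alignment table of the study, and the candidate and such a read are identical over their first 18 bases.
read of the other arm of miR-215: tctgtcatttctgtaggccaat
SSC1_7989: ucugucauuucuguaggcuau
SSC1_7989 had 57 reads in S1, 100 in S4 and 0 in S7, and 0 in W1, 6 in W4 and 8 in W7. The suckling libraries thus held both its highest counts and a count of 0. Whether reads of the other arm of miR-215 were counted at SSC1_7989 or at miR-215 was not tested.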
